A study of Mus musculus with 188 samples.

Results

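Brain slices that received hemoglobin bound to haptoglobin (HbHp) were compared with slices that received the same dose of free hemoglobin (Hb), both at 200 µM for 24 h. The comparison rested on 8 HbHp libraries and 10 Hb libraries, 18 of the 188 libraries of the series, chosen by their treatment tag. The slices were coronal, 150 µm thick, cut from the brains of wild-type C57BL/6J mice of 6 to 8 weeks and of both sexes, placed 2 to an insert, and treated on day 7 of culture after the change to a medium without serum on day 4. Hb was human, purified from expired blood units, and haptoglobin (Hp) was human plasma protein of the 1-1 type, so that the HbHp slices carried a second human protein that the Hb slices did not. Untreated slices of the same cultures (10 libraries at 24 h and 9 at 48 h), and the Hb (10) and HbHp (8) libraries of 48 h, entered the same fit. The mice were perfused with saline before slicing, and the slices have no circulation. They were read as bulk mRNA, in which fewer cells of a type and less RNA per cell cannot be told apart.

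Hemoglobin that escapes from red cells releases heme and iron, which drive lipid peroxidation. Haptoglobin binds hemoglobin almost irreversibly, keeps the heme in its pocket and directs the complex to the macrophage receptor CD163. Cells answer heme by releasing the repressor BACH1 and stabilizing the activator NRF2, which together turn on heme oxygenase, ferritin and the enzymes of glutathione synthesis, while iron released from heme acts on the mRNAs of transferrin receptor and ferritin through iron regulatory proteins.

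The 2 groups did not share a sequencing batch and culture round. All 8 HbHp libraries came from batch 3 and round E2, whereas 6 Hb libraries came from batch 2 and round E1, 2 from batch 2 and round E2, 2 from batch 3 and round E1, and 0 from batch 3 and round E2. Batch is the sequencing order given in the labels, and round is the first part of the library name. The difference was therefore read through additive batch and round terms in a fit of 55 libraries, and in batch 3 and round E2 these terms met untreated or Hb slices in only 3 libraries, namely control 24 h replicate 11, control 48 h replicate 9 and Hb 48 h replicate 10. The round term itself was called in 61.5% of genes and the batch term in 9.17%. A fit with a term for each combination of batch and round called 240 genes, among them 43 of the 46 described here, and all 46 had the same sign. That fit rests on the same 3 libraries in batch 3 and round E2, and the 46 were chosen from the same counts. The kept calls and signs are therefore no separate evidence and do not test whether the terms add. Among the 18 libraries themselves, treatment and the combination of batch 3 with round E2 cannot be told apart. Differences of group means within round E2, given below, set HbHp against the 2 Hb libraries of batch 2 and round E2. Those within batch 3 set HbHp against the 2 Hb libraries of round E1, so each still mixes treatment with batch or with round. Total counts ran from 24712931 to 51586623 in Hb (median 45660512) and from 24695240 to 32211321 in HbHp (median 29560038), and mitochondrially encoded genes took 2.46 to 2.80% and 2.49 to 2.85% of counts. Control 24 h replicate 11 stood apart with a mitochondrial share of 1.90%, where every other library of the fit lay between 2.38 and 2.90%. Some libraries share the code in their name, and the labels do not say which libraries came from separate animals. The p-values therefore measure only the spread between these libraries. As a check of the tissue, summed markers of astrocytes (4586 to 9812 CPM in Hb, 7694 to 10577 CPM in HbHp) and of oligodendrocytes (25244 to 40978 and 31219 to 41767 CPM) were abundant in every library, and summed neuronal markers were lower (623 to 928 and 609 to 1068 CPM). Levels are in CPM, a library's counts scaled to a common total after TMM normalization, and every adjusted p is from the quasi-likelihood test of edgeR with Benjamini-Hochberg adjustment over all genes tested.

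The sequences most used to read these responses are shown first, because genes called in the comparison carry them. The iron-responsive element is a short hairpin that iron regulatory proteins bind when iron is scarce, which protects the mRNA when it lies in the 3′ UTR and blocks translation when it lies in the 5′ UTR. A search for its 17-base form (C, 5 bases, the loop CAGTG, 1 base and 5 bases that pair with the first 5, G and T pairs allowed) in GENCODE M21 transcripts found 4 in the 3′ UTR of transferrin receptor (a transcript of 4890 bases, at 3321 to 3337, 3700 to 3716, 3765 to 3781 and 3812 to 3828), and 1 each in the 5′ UTR of ferroportin (3370 bases, at 96 to 112), of the ferritin heavy chain (929 bases, at 93 to 109) and of the ferritin light chain (968 bases, at 84 to 100). Capitals mark the loop.
Tfrc site 1: cggaagCAGTGccttcc
Tfrc site 2: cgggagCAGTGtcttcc
Tfrc site 3: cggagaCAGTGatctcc
Tfrc site 4: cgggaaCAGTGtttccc
Slc40a1: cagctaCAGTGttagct
Fth1: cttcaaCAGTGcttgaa
Ftl1: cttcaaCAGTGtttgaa
Of 16197 tested genes with a transcript, 272 (1.68%) held at least 1 such hairpin in their longest transcript, and Tfrc was the only one with 4 or more. Of the 46 genes called between HbHp and Hb it was also the only one with any, so the search marked 1 of 46 (2.17%).

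The antioxidant response element is the site of NRF2 and BACH1 with a small MAF protein. Its core, searched as TGACNNNGC on both strands, lay in the 250 bases before the start of Gclm (chr3:122245307-122245556, + strand), of Ikbkg (chrX:74424362-74424611, + strand, 1 of 4 starts listed) and of Prdx1 (chr4:116685349-116685598, + strand), all from RefSeq on GRCm38.p6. These 3 are shown because Gclm and Ikbkg were called and Prdx1 did not overlap between the groups. Capitals mark the core as it reads on the printed strand.
Gclm: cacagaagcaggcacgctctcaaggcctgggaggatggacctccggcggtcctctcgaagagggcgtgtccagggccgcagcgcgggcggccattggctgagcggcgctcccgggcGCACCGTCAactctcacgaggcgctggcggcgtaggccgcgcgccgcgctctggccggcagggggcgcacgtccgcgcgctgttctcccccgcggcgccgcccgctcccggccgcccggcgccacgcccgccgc
Ikbkg: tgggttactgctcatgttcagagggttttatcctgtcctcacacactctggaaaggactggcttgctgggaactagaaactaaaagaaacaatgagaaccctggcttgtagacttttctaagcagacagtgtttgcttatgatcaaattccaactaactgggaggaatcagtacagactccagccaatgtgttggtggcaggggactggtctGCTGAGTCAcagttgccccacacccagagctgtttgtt
Prdx1: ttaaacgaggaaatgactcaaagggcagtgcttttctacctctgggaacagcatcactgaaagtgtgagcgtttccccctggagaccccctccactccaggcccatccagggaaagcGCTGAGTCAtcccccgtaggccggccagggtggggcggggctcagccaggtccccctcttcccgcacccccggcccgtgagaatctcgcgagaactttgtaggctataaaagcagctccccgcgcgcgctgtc
Among all 27025 genes whose promoter was listed, 11.5% held the core, and among tested genes 13.8%. It stood in 6 of the 25 called-higher genes with a promoter (24.0%: Gclm, Sirt1, Slc30a1, Ikbkg, Brdt and Zfand5), in 0 of the 10 called-lower genes and in 7 of 26 NRF2 targets (26.9%). The match is a description of the letters and not of a bound site.

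Between HbHp and Hb at 24 h, 46 of 16221 genes were called (0.284%), 31 higher with HbHp (0.191%) and 15 lower (0.0925%). The largest fitted differences among the higher genes were those of the iron importer Tfrc, the glutathione enzyme subunit Gclm and the fucosyltransferase Fut9. Among the lower genes they were those of the hardly expressed Ptprq, of Dlk2, of the monocyte attractants Ccl2 and Ccl7 and of the pattern receptor Tlr2. The differences were small, with 8 genes past 1.5-fold (3 higher, 5 lower) and 1 past 2-fold. An unadjusted p under 0.05 was reached by 2060 genes (12.7%). The same contrast at 48 h called 342 genes (2.11%), and no gene was called for a difference between the times (0 by edgeR, with 1225 genes or 7.55% at an unadjusted p under 0.05, and 1 by DESeq2). The 48 h contrast comes from the same fit and shares its batch and round terms. An error in those terms would enter both times, so the 48 h values below are no separate check of them. Without both untreated libraries of batch 3 and round E2 the 48 h contrast called 7 genes.

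**Figure D1:**
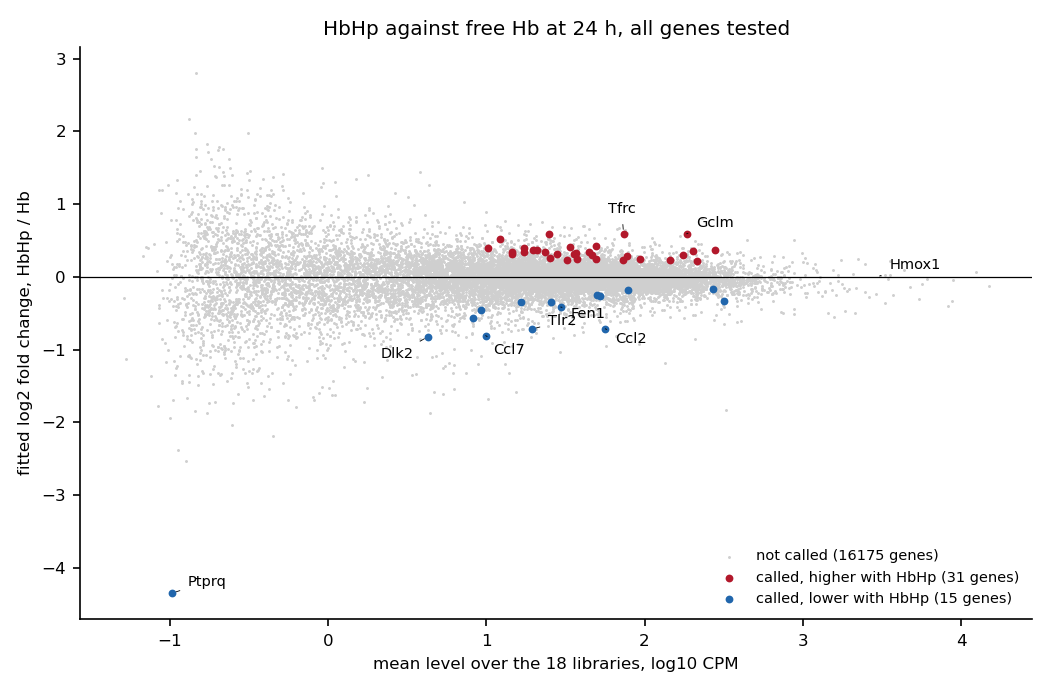
Fitted log2 difference between HbHp and Hb at 24 h (y) against mean expression in log10 CPM over the 18 libraries (x), 1 point a gene. Grey points are the 16175 genes not called, and the 31 called higher and 15 called lower with HbHp are coloured, nearly all of them within 1 unit of 0.

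The number of calls moved with single libraries, while the fitted differences stayed about as large. With 1 library left out at a time, the count of 46 ran from 4 to 158 (median 22), and only 5 of 22 such fits stayed within 1.5 times of 46. It fell to 4 without control 48 h replicate 9 and to 8 without control 24 h replicate 11. Among Hb libraries it was 25, 10, 10 and 19 without replicates 1, 3, 6 and 7, and 87, 158 and 94 without replicates 5, 8 and 9. Among HbHp libraries it was 113 without replicate 2, and 10, 19, 10, 19, 14 and 10 without replicates 3 to 8. Without control 48 h replicate 8 it was 91. With both untreated libraries of batch 3 and round E2 left out together, a setting added after the data had been seen, 2 of the 46 were called, Gclm (0.54, adjusted p = 0.0408) and Ccl7 (-0.91, adjusted p = 0.00309), and with Hb 48 h replicate 10 left out 55 genes were called. Gclm, Ccl7 and Gm20708 were the 3 genes called in all 22 fits. All 46 genes kept their sign in each of the 22 fits, and the log2 difference of a gene was 0.804 to 1.24 times that from all libraries. The 46 genes were called for a large difference over its SE in these same libraries. A change of sign with 1 library left out was therefore unlikely from the start, and the kept signs are no separate evidence.

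The untreated libraries of batch 3 and round E2 lay at the edge of the untreated group for most of the called genes. Control 24 h replicate 11 was the lowest of 10 untreated libraries in 27 of the 31 genes called higher, against 23.6% of all genes, and the highest in 7 of the 15 called lower, against 21.3%. At 48 h, control replicate 9 was the lowest of 9 in 29 of the 31 and the highest in 10 of the 15, against 21.6% and 18.6% of all genes. They enter the batch and round terms together with every other library of the fit. Leaving out either or both lowered the count of calls to between 2 and 8, while all 46 genes kept their sign. With both left out, the log2 difference was smaller than from all libraries for genes such as Ireb2 (0.15), Nadk2 (0.29) and Fut9 (0.44). It was larger in size for Ccl2 (-0.77) and Ccl7 (-0.91). Without either term, 31 of the 46 genes kept their sign and 10 of them were called.

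**Figure D2:**
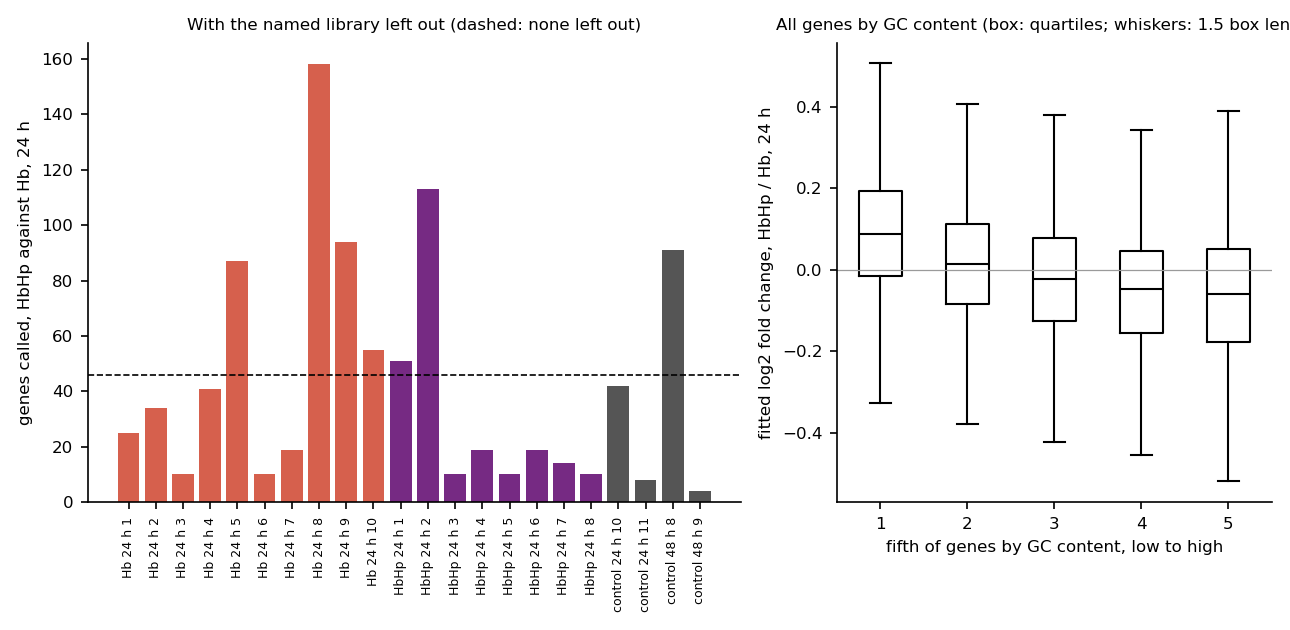
Left, genes called between HbHp and Hb at 24 h with each of 22 libraries left out (bars), beside the 46 called with all libraries (dashed line), from 4 to 158. Right, box plots of the fitted log2 difference of all tested genes in 5 classes of transcript GC content from low to high, whose medians step down from 0.09 to -0.06.

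Among glutathione and NRF2 genes, Gclm and Me1 were called, both higher with HbHp than with Hb. Gclm, the modifier subunit of glutamate-cysteine ligase and so part of the first step of glutathione synthesis, was the gene called most firmly. It was measured at 137 to 217 CPM in Hb (median 161) and 187 to 229 CPM in HbHp (median 205), against 90.6 to 141 in untreated slices (median 117). The groups overlapped, since the highest Hb libraries reached the HbHp range, but both lay above the untreated median. The fitted difference was 0.59 ± 0.10 on the log2 scale (SE, 8 against 10 libraries, adjusted p = 0.00158). It was 0.28 within round E2 and 0.34 within batch 3 as a difference of group means, and 0.73 ± 0.09 at 48 h (adjusted p = 5.85e-06). Relative to untreated slices the fit placed Hb 0.54 and HbHp 1.13 higher. With an offset for GC content and transcript length it was 0.51 (adjusted p = 0.00402), and left-out fits gave 0.56 to 0.67. The call was lost with the round term only and in every fit restricted to the libraries of 24 h, of round E2 or of batch 3, with 0.51 (adjusted p = 0.148) from all 24 h libraries of the 3 groups.

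Of the 27 NRF2 targets tested, 23 were higher with HbHp and 4 lower, with a median of 0.22 beside -0.01 for all genes, and 2 were called, both higher, with 15 at an unadjusted p under 0.05, each of them higher. Within round E2 the median was 0.19 and within batch 3 it was 0.06. The second called member was Me1, which makes NADPH from malate, but its measured medians over all libraries did not differ in the direction of the call. Within round E2 the Hb libraries stood at 149 and 179 CPM, both under the HbHp median. Me1 stood at 149 to 267 CPM in Hb (median 208) and 173 to 214 CPM in HbHp (median 199), with a fitted difference of 0.36 ± 0.08 (adjusted p = 0.0387) and a difference within batch 3 of -0.27. Its call was lost in 12 of the 22 left-out fits, without Hb replicates 1, 3, 6 or 7, HbHp replicates 3 to 8, control 24 h replicate 11 or control 48 h replicate 9, with an adjusted p between 0.0502 and 0.148.

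Several inducible enzymes of the same list missed the threshold at 24 h. Nqo1, the quinone reductase most used as an NRF2 readout, ran from 13.5 to 24.8 CPM in Hb (median 14.9) and from 18.5 to 25.4 CPM in HbHp (median 20.4). Its fitted difference was 0.64 ± 0.17 (adjusted p = 0.0832), and at 48 h it was 0.82 ± 0.17 (adjusted p = 0.00688). Gstm1 and Gsta4, which conjugate glutathione, gave 0.46 ± 0.14 (adjusted p = 0.122) and 0.49 ± 0.13 (adjusted p = 0.0663). The cystine importer Slc7a11 gave 0.81 ± 0.26 (adjusted p = 0.138), and its measured medians were 228 CPM in Hb and 224 CPM in HbHp. Prdx1, a peroxiredoxin, did not overlap between the groups, at 640 to 996 CPM in Hb and 1048 to 1346 CPM in HbHp, yet its fitted difference was 0.32 ± 0.14 (adjusted p = 0.295) at 24 h and 0.91 ± 0.14 (adjusted p = 0.000157) at 48 h.

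The wider redox lists held few calls. Among 16 genes of glutathione synthesis and recycling, 9 were higher and 7 lower (median 0.09), and Gclm was the 1 called. Gclc, the catalytic partner of Gclm, gave 0.27 ± 0.10 (adjusted p = 0.23), and glutathione reductase Gsr gave 0.23 ± 0.07 (adjusted p = 0.12). Of 16 genes of the thioredoxin and peroxiredoxin system 8 were higher and 8 lower, with 0 called by edgeR and 4 at an unadjusted p under 0.05. The ATF4 targets, which answer amino acid stress, were higher in 17 of 20 (median 0.12), with 0 called and 3 at an unadjusted p under 0.05. The median of that list was 0.18 within round E2 and -0.20 within batch 3. Trib3, a pseudokinase of that list, did not overlap, at 12.5 to 23.1 CPM in Hb and 24.8 to 40.03 CPM in HbHp, with a fitted difference of 0.54 ± 0.19 (adjusted p = 0.192).

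**Figure D3:**
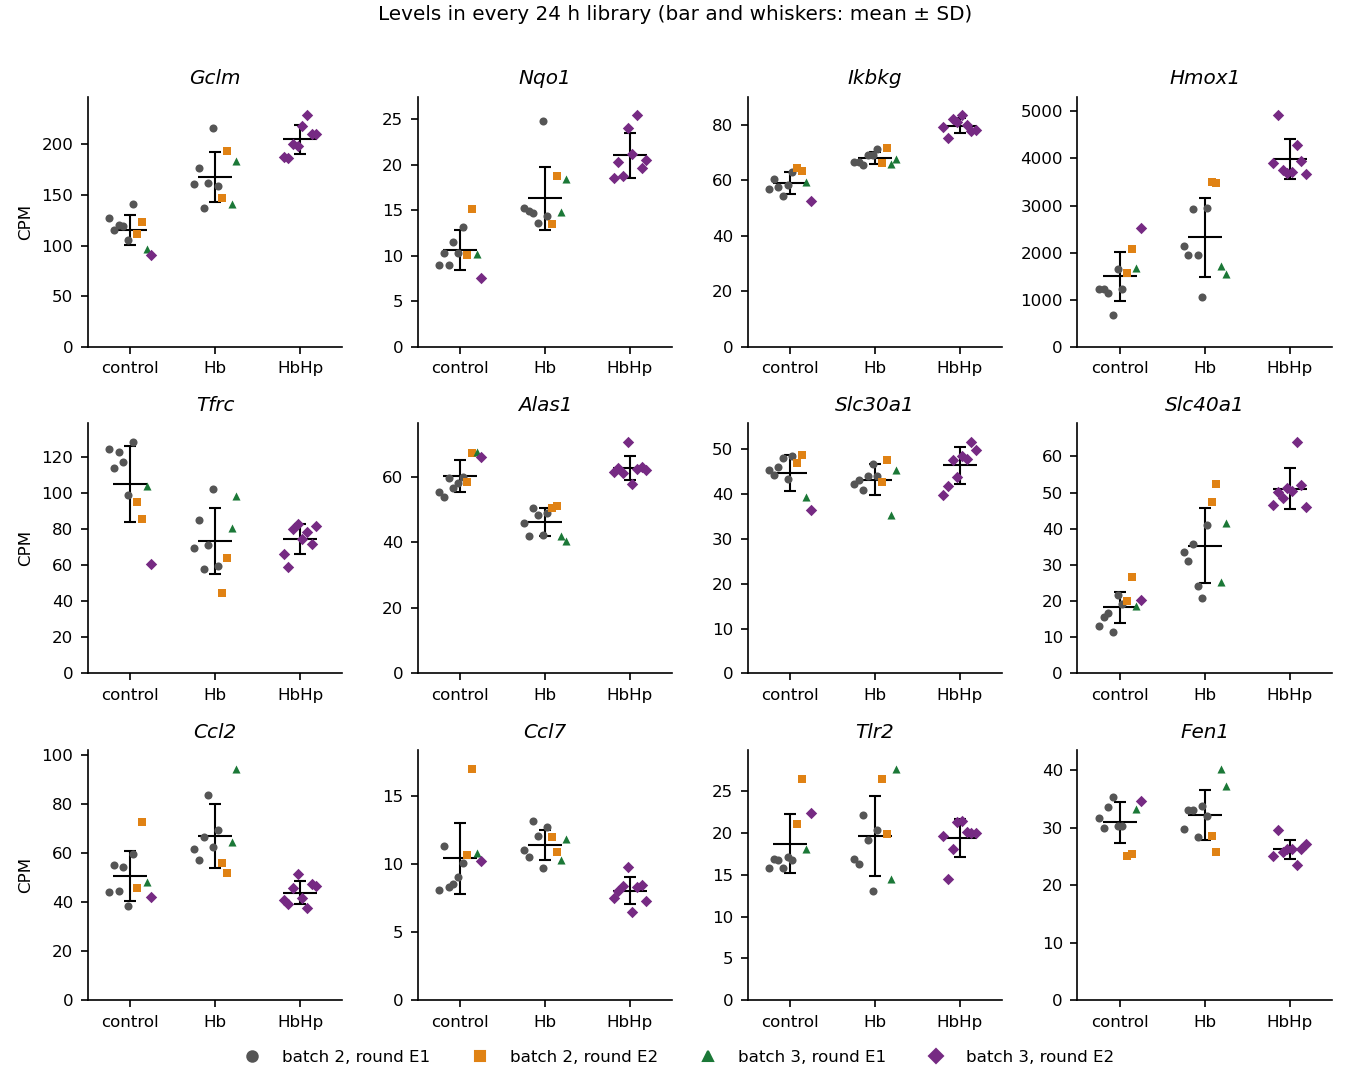
CPM of 12 genes in each untreated, Hb and HbHp library of 24 h, with markers for the combination of batch and round and bars for the mean ± SD of each group. Ikbkg and Hmox1 separate Hb from HbHp in the measured levels, Ccl2 lies lower in all HbHp libraries than in any Hb library, and Tlr2 and Slc30a1 overlap widely.

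Iron and heme genes were mixed. Tfrc, which imports transferrin-bound iron, was called higher with HbHp, while heme oxygenase and ferroportin gave fitted differences near 0. The list of heme and iron handling held 8 higher and 15 lower of 23 tested (median -0.04), and 2 were called, Tfrc and Ireb2.

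Tfrc ran from 44.7 to 102 CPM in Hb (median 70.4), from 59.2 to 82.8 CPM in HbHp (median 76.2) and from 60.6 to 128 CPM in untreated slices (median 109). The measured ranges of Hb and HbHp overlapped almost entirely, and both medians lay under that of untreated slices. The fitted difference was 0.60 ± 0.12 (adjusted p = 0.0175), with 0.46 within round E2 and -0.27 within batch 3. At 48 h it was 0.77 ± 0.12 (adjusted p = 0.000245). Relative to untreated slices, the fit placed Hb 0.57 lower, as a log2 difference of -0.57, and HbHp at 0.02. Without control 48 h replicate 9 the adjusted p was 0.0913, and without control 24 h replicate 11 it was 0.0832, with differences of 0.58 and 0.55. With the GC and length offset the difference was 0.47 (adjusted p = 0.0622). Ireb2, which encodes iron regulatory protein 2, was called at 0.25 ± 0.06 (adjusted p = 0.0387), although its measured median was 94.2 CPM in Hb and 91.0 CPM in HbHp. Its call was lost in 11 of the 22 left-out fits, without Hb replicates 3, 6 or 7, HbHp replicates 3 to 8 or either of those untreated libraries, with an adjusted p between 0.0525 and 0.174.

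Hmox1, the enzyme that opens heme, was measured at 1048 to 3510 CPM in Hb (median 2045) and 3668 to 4917 CPM in HbHp (median 3830), against 670 to 2513 in untreated slices. Every HbHp library lay above every Hb library. The batch and round terms took up this separation, and the fitted difference was 0.01 ± 0.23 (adjusted p = 0.99), with 0.18 within round E2 and 1.28 within batch 3. Both treatments stood above untreated slices in the fit, Hb by 0.73 and HbHp by 0.75. The iron exporter Slc40a1 overlapped at the edge, with 20.9 to 52.4 CPM in Hb and 46.1 to 64 CPM in HbHp, and its fitted difference was 0.02 ± 0.20 (adjusted p = 0.983). Slc48a1, a heme transporter of the endolysosome, gave 0.03 ± 0.08 (adjusted p = 0.889).

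Alas1, the rate-limiting enzyme of heme synthesis, did not overlap between the groups. It stood at 40.5 to 51.2 CPM in Hb (median 47.1), 57.8 to 70.6 CPM in HbHp (median 62.1) and 53.8 to 67.6 CPM in untreated slices (median 59.1). The HbHp range overlapped the untreated range, and every Hb library lay under every untreated one. The fitted difference was 0.31 ± 0.09 (adjusted p = 0.10), which missed the threshold, and at 48 h it was 0.47 ± 0.09 (adjusted p = 0.00242). Of the 8 heme synthesis genes 3 were higher and 5 lower (median -0.03), with 0 called by edgeR and 2 at an unadjusted p under 0.05.

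Among 9 receptors and scavengers of hemoglobin and heme, 3 were higher and 6 lower (median -0.30), with 0 called and 2 at an unadjusted p under 0.05. Cd163, the macrophage receptor of the HbHp complex, was low, at 1.96 to 6.90 CPM in Hb and 1.65 to 4.14 CPM in HbHp, with a fitted difference of -0.30 ± 0.37 (adjusted p = 0.774). The study describes the mouse receptor as binding HbHp weakly beside the human one. Lrp1, which takes up heme-hemopexin, gave -0.26 ± 0.17 (adjusted p = 0.522). Slc30a1, the zinc exporter of the plasma membrane, was called higher at 0.34 ± 0.07 (adjusted p = 0.0175). Its measured levels overlapped widely, at 35.4 to 47.6 CPM in Hb (median 43.6) and 39.8 to 51.6 CPM in HbHp (median 47.7), and the call was lost without control 48 h replicate 9 (adjusted p = 0.0996) and without control 24 h replicate 11 (adjusted p = 0.0518). It was the 1 called of 7 metallothionein and zinc genes, of which 6 were higher and 1 lower (median 0.07), and Mt1 and Mt2 gave 0.07 ± 0.09 (adjusted p = 0.782) and 0.15 ± 0.10 (adjusted p = 0.542). Of 14 ferroptosis regulators 3 were higher and 11 lower (median -0.07), with 1 called.

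Among inflammatory genes, Ccl2, Ccl7 and Tlr2 were called, each lower with HbHp than with Hb. The chemokine list was lower in 18 of 20 genes (median -0.48), with 2 called, Ccl2 and Ccl7. Both are ligands of the monocyte receptor CCR2. Within round E2 the list's median was -0.21, and within batch 3 it was 0.22, so that the direction of the list was not that of the fit in batch 3.

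Ccl7 ran from 9.72 to 13.2 CPM in Hb (median 11.4), from 6.44 to 9.81 CPM in HbHp (median 8.18) and from 8.08 to 17 CPM in untreated slices (median 10.2). The groups overlapped only at their edge. The fitted difference was -0.81 ± 0.14 (adjusted p = 0.00376), and the difference of group means was -0.49 within round E2 and -0.44 within batch 3. Left-out fits gave -0.86 to -0.76, and libraries of 24 h only gave -0.69 (adjusted p = 0.148). At 48 h it was -0.31 ± 0.13 (adjusted p = 0.222). The test between the times (edgeR, batch and round terms) gave no call for this gene.

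Ccl2 did not overlap, at 51.8 to 94.4 CPM in Hb (median 63.4) and 37.6 to 51.4 CPM in HbHp (median 43.6). Every Hb library lay above the median of untreated slices (46.9 CPM, range 38.3 to 72.6), and the HbHp libraries lay around it. The fitted difference was -0.71 ± 0.16 (adjusted p = 0.0371), with -0.31 within round E2 and -0.83 within batch 3, and it was -0.12 ± 0.16 at 48 h (adjusted p = 0.74). The call was held in 13 of 22 left-out fits. It was lost without Hb replicates 3 (adjusted p = 0.0504), 6 (0.0506) and 10 (0.0712), without HbHp replicates 3 (0.0533), 5 (0.0618), 6 (0.0621), 7 (0.0530) and 8 (0.0542), and without control 48 h replicate 9 (0.148).

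Of 21 genes of microglial and myeloid activation, 4 were higher and 17 lower (median -0.20, and 0.34 within batch 3), and Tlr2 was called. Tlr2, the receptor of bacterial lipoproteins, had nearly equal measured levels, at 13 to 27.7 CPM in Hb (median 19.5) and 14.5 to 21.4 CPM in HbHp (median 20.0). Its fitted difference was -0.71 ± 0.14 (adjusted p = 0.0175), within batch 3 the difference was -0.06, and without control 48 h replicate 9 the adjusted p was 0.112. Cd14, a co-receptor of the Toll-like receptors, gave -0.64 ± 0.20 (adjusted p = 0.126). The receptor of medium-chain fatty acids Gpr84 gave -0.31 ± 0.26 (adjusted p = 0.647) and the tumor necrosis factor receptor Tnfrsf1a 0.04 ± 0.05 (adjusted p = 0.81). Il6 and the interleukin Il11, both of the interleukin 6 family, gave -0.77 ± 0.31 (adjusted p = 0.26) and -1.11 ± 0.32 (adjusted p = 0.104). Il11 was the gene with the smallest p between the times, with -1.11 at 24 h and 0.62 at 48 h (difference -1.73, adjusted p = 0.0799).

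Markers of myeloid cells held 0 calls, and their fitted and measured differences did not share a direction. Of 13 microglial markers 1 was higher and 12 lower in the fit (median -0.60), with 0 called by edgeR and 2 at an unadjusted p under 0.05. Their summed level, however, was 591 to 3224 CPM in Hb (median 1362) and 1757 to 2696 CPM in HbHp (median 2019), and their median difference was -0.43 within round E2 and 1.40 within batch 3. Csf1r ran from 29.6 to 163 CPM in Hb and from 75.9 to 134 CPM in HbHp. Of 11 markers of border-associated macrophages 10 were lower (median -0.52), with sums of 186 to 686 and 375 to 589 CPM. Disease-associated microglia genes were lower in 15 of 18 (median -0.26), with 0 called and 4 at an unadjusted p under 0.05. Complement genes were lower in 10 of 12 in the fit (median -0.17), with 0 called and 0 at an unadjusted p under 0.05, while their summed level was 1043 to 4014 CPM in Hb (median 2062) and 2534 to 3675 CPM in HbHp (median 3058). The part of microglial content in the chemokine and Tlr2 results was not tested.

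**Figure D4:**
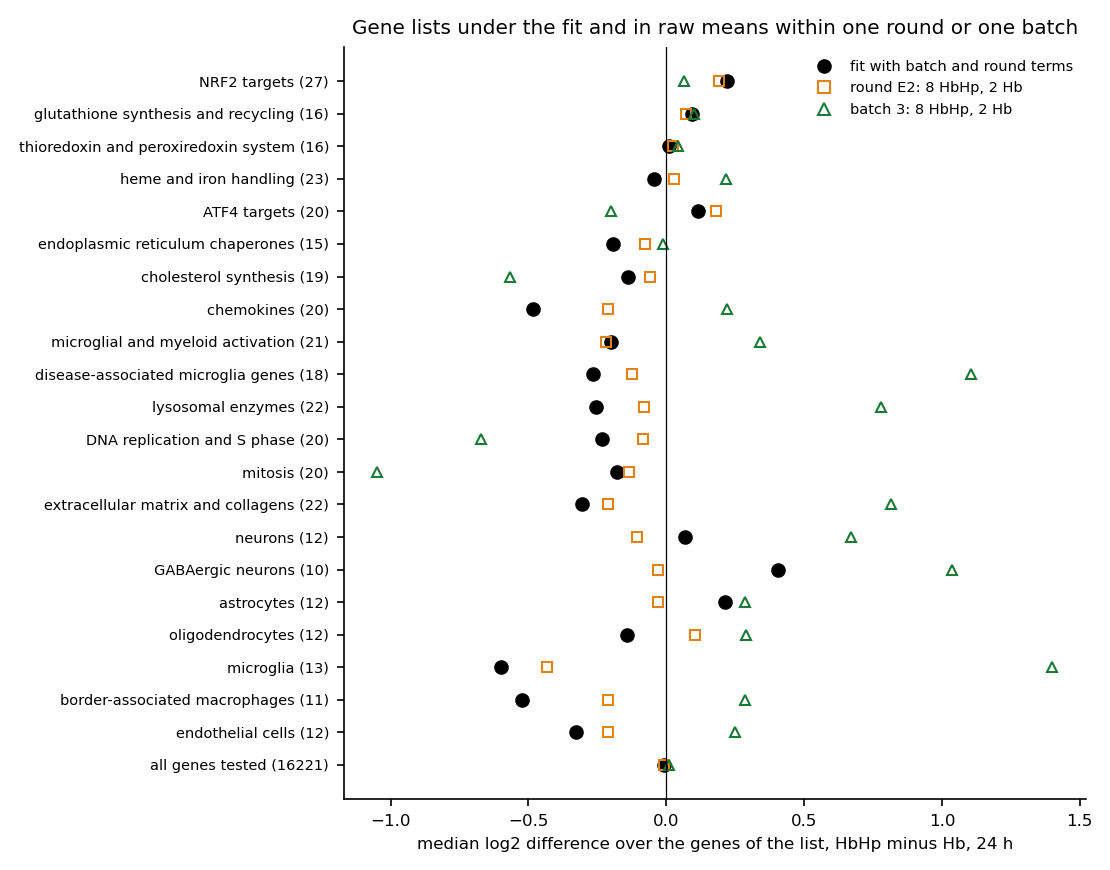
Median log2 difference between HbHp and Hb at 24 h of 22 gene lists, from the fit with batch and round terms, and as a difference of group means within round E2 and within batch 3. NRF2 targets lie above 0 on all 3 measures, DNA replication lies under 0 on all 3, and microglia and chemokines lie under 0 in the fit and within round E2 but above 0 within batch 3. The differences of group means rest on 2 Hb libraries each. They mix treatment with batch within round E2 and with round within batch 3, so the 3 measures are not separate checks.

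Signaling and chromatin genes were also among the calls. Ikbkg, the scaffold subunit (NEMO) of the kinase that activates NF-kappa-B, was the other called gene whose groups did not overlap. It was measured at 65.6 to 71.5 CPM in Hb (median 67), 75.2 to 83.3 CPM in HbHp (median 79.6) and 52.4 to 64.4 CPM in untreated slices (median 58.8), so that the 3 groups lay in steps without overlap. The fitted difference was 0.23 ± 0.05 (adjusted p = 0.0175), with 0.21 within round E2, 0.25 within batch 3 and 0.30 ± 0.05 at 48 h (adjusted p = 0.000213). Without control 24 h replicate 11 the adjusted p was 0.0832. Ikbkg overlaps G6pdx on the other strand, and how reads were assigned by strand is not given in the sources used here, so the reads of this pair may be shared. G6pdx, the NADPH-producing first enzyme of the pentose phosphate pathway, gave 0.22 (adjusted p = 0.27). Across all genes, 104 of 16221 (0.641%) did not overlap between Hb and HbHp, 42 higher (0.259%) and 62 lower (0.382%), and of the 46 called genes Ikbkg and Ccl2 were the 2 that did not.

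Sirt1, the NAD-dependent deacetylase, was called at 0.35 ± 0.06 (adjusted p = 0.0094) with measured medians of 16.9 CPM in Hb and 17.9 CPM in HbHp, and without control 48 h replicate 9 the adjusted p was 0.0552. Brdt, a bromodomain protein best known from spermatogenesis, ran from 7.34 to 11.1 CPM in Hb and from 10.4 to 12.6 CPM in HbHp, and was called at 0.40 ± 0.08 (adjusted p = 0.0275). It was lost without HbHp replicate 5 (adjusted p = 0.0618), control 24 h replicate 11 (0.0832) and control 48 h replicate 9 (0.113). The most raised of the remaining genes had measured levels that went the other way. Fut9, a fucosyltransferase of the Lewis x epitope, was fitted at 0.59 ± 0.14 (adjusted p = 0.0387), with medians of 30.05 CPM in Hb and 19.1 CPM in HbHp, 33.9 CPM in untreated slices and 9.81 CPM in control 24 h replicate 11. Arxes2 (0.52 ± 0.13), Rimklb (0.43 ± 0.10) and Nadk2 (0.41 ± 0.10), whose last makes mitochondrial NADP, had lower or like medians in HbHp, at 11.8, 49.2 and 31.6 CPM against 13.5, 50.4 and 34.8 CPM in Hb. Arxes2 has a near-identical neighbour, Arxes1, with which it can share reads. Marcks, an actin-binding substrate of protein kinase C, was fitted at 0.37 ± 0.09 and measured at 209 to 350 CPM in Hb and 225 to 262 CPM in HbHp. Of the 22 left-out fits, Fut9 was called in 9, Arxes2 and Marcks in 8 each, Rimklb in 7 and Nadk2 in 6.

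Among cell cycle genes, Fen1 was called, lower with HbHp. All 20 genes of DNA replication and S phase were lower in the fit (median -0.23), with 1 called and 9 at an unadjusted p under 0.05, and the list's median was -0.08 within round E2 and -0.67 within batch 3. The called member was Fen1, the flap endonuclease that trims Okazaki fragments, at 25.8 to 40.3 CPM in Hb (median 32.5) and 23.6 to 29.5 CPM in HbHp (median 26.3). Its fitted difference was -0.41 ± 0.08 (adjusted p = 0.0142), and without control 48 h replicate 9 the adjusted p was 0.0873. Mcm5, a subunit of the replicative helicase, did not overlap, at 41.8 to 84.3 CPM in Hb and 31.4 to 40.5 CPM in HbHp, with -0.42 ± 0.11 (adjusted p = 0.0884). Mcm3 gave -0.41 ± 0.11 (adjusted p = 0.0754). Of 20 mitosis genes 18 were lower (median -0.18), with 0 called by edgeR and 1 at an unadjusted p under 0.05.

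Other lowered genes were spread over functions. Ada, which deaminates adenosine, stood at 7.10 to 12.6 CPM in Hb (median 8.71) and 5.82 to 8.58 CPM in HbHp (median 7.44), with -0.57 ± 0.12 (adjusted p = 0.0371), and its call was lost in 10 of the 22 left-out fits, without Hb replicates 3, 6 or 10, HbHp replicates 3 or 5 to 8 or either untreated library of batch 3 and round E2 (adjusted p 0.0504 to 0.148). Dlk2, a Notch ligand homologue, was at 2.67 to 5.67 CPM in Hb and 3.16 to 5.50 CPM in HbHp, with -0.82 ± 0.18 (adjusted p = 0.0371), and was lost in 10 of 22, without Hb replicates 3 or 6, HbHp replicates 3 to 8 or either of these untreated libraries (adjusted p 0.0504 to 0.148). Tuba1b, an alpha tubulin of growing cells, gave -0.33 ± 0.07 (adjusted p = 0.0371) and was lost in 11 of 22, without Hb replicates 1, 2, 3, 6, 7 or 9, HbHp replicates 3, 5, 7 or 8 or control 48 h replicate 9 (adjusted p 0.0502 to 0.148). Sec61a1, the pore of the endoplasmic reticulum translocon, gave -0.17 ± 0.04 (adjusted p = 0.0401) with medians of 282 CPM in Hb and 253 CPM in HbHp, and was called in 5 of the 22 left-out fits. Gm20708 (-0.46 ± 0.09, adjusted p = 0.0142, medians 9.64 and 9.13 CPM) overlaps the genes Syngr2 and Afmid on its strand and Tk1 on the other, so its counts cannot be ascribed to 1 gene. Reads may likewise be shared by Fen1 with Tmem258, Dlk2 with Abcc10 and Ccl2 with Gm17268 on the other strand, and by Tuba1b with Gm49450 on its own strand. Ptprq, fitted at -4.35 ± 0.99 (adjusted p = 0.0387), was hardly expressed, with 5 reads in all over the 8 HbHp libraries and 0 to 0.495 CPM in Hb, and its fold is not read here.

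Endoplasmic reticulum chaperones were lower in 13 of 15 (median -0.19), with 0 called by edgeR, 8 lower and 1 higher at an unadjusted p under 0.05. Hspa5 (BiP) gave -0.22 ± 0.06 (adjusted p = 0.105), Calr -0.24 ± 0.07 (adjusted p = 0.111) and Hsp90b1 -0.22 ± 0.07 (adjusted p = 0.125). Cholesterol synthesis genes were lower in 18 of 19 (median -0.14), with 0 called and 6 lower at an unadjusted p under 0.05, and medians of -0.06 within round E2 and -0.57 within batch 3. Dhcr7, the last enzyme of that pathway, gave -0.27 ± 0.09 (adjusted p = 0.161). Protease-activated receptors, interferon-stimulated genes and hypoxia targets held 0 calls, with 0 members each at an unadjusted p under 0.05. Fosb, an AP-1 factor, gave 1.11 ± 0.32 (adjusted p = 0.11), with 1.51 to 3.45 CPM in Hb and 1.65 to 9.92 CPM in HbHp, and was not called, and 4 of 17 immediate early genes had an unadjusted p under 0.05.

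**Figure D5:**
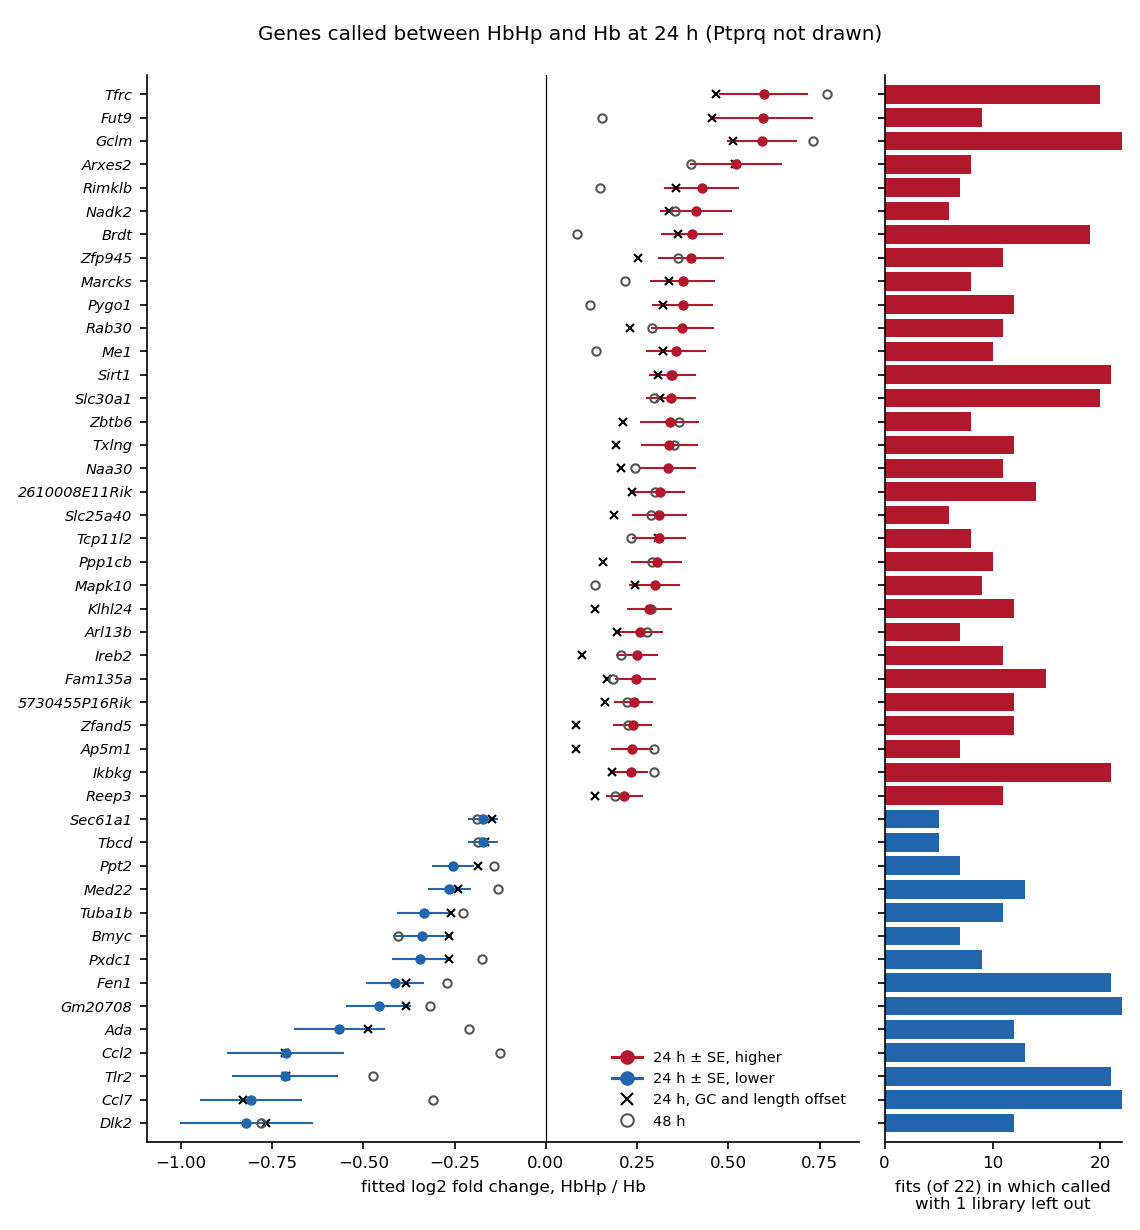
Fitted log2 difference ± SE between HbHp and Hb at 24 h of 45 called genes (Ptprq is off the scale), with the value under the GC and length offset (cross) and the value at 48 h (open circle). At right, the number of 22 fits with 1 library left out in which each gene was called, which is 22 for Gclm, Ccl7 and Gm20708.

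Markers of other cell types had no call. GABAergic neuron markers were higher in 8 of 10 (median 0.41), astrocyte markers in 9 of 12 (median 0.21) and pan-neuronal markers in 8 of 12 (median 0.07). Within round E2 these medians were -0.03, -0.03 and -0.10, and within batch 3 they were 1.04, 0.29 and 0.67. Lower in the fit were markers of endothelial cells in 11 of 12 (median -0.33) and of choroid plexus and ependyma in 9 of 10 (median -1.40). Their medians were -0.21 and -0.95 within round E2, but 0.25 and 1.78 within batch 3. The choroid plexus gene Clic6 ran from 0.370 to 66.7 CPM in Hb and from 1.20 to 41.4 CPM in HbHp, so that slices of 1 group differed far more among themselves than the groups did. Each of these 5 lists had 0 members called by edgeR.

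Transcript GC content differed between the genes called higher and lower. Median GC was 42.1% in the genes called higher, 53.8% in those called lower and 49.7% in all genes. In 5 equal classes of GC content from low to high, the median difference over all genes was 0.09, 0.01, -0.02, -0.05 and -0.06, and the higher calls numbered 21, 10, 0, 0 and 0. The lower calls numbered 2, 1, 2, 6 and 4. At 48 h the medians of the same classes were 0.13, 0.06, -0.0005, -0.05 and -0.11, so the 48 h values carry the same trend. With each library's deviation by GC content and length entered as an offset, an alternative chosen after the data had been seen, 18 genes were called, of which 10 were among the 46, Gclm, Ccl7, Ccl2, Tlr2, Fen1, Sirt1, Slc30a1, Brdt, Tbcd and Ptprq.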

How the data were processed

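The authors deposited 1 table of whole read counts per Ensembl gene for each library, not normalized. Their processing notes name featureCounts and GRCm39, and the aligner and the strand setting are not given in the sources used here. RNA was extracted with the Lexogen SPLIT kit and sequenced as Illumina TruSeq mRNA libraries. The tables hold 25528 genes, of which 25424 took a symbol from GENCODE M21. Control, Hb and HbHp libraries of 200 µM or untreated, 24 h and 48 h, were fitted together (55 libraries) in edgeR 4.0.16 (R 4.3.3) after TMM normalization. Low genes were dropped by filterByExpr, with a minimum count of 10 and a minimum total of 15, which left 16221. The model had 1 coefficient per group and additive batch and round terms. Contrasts took edgeR's quasi-likelihood test, and a gene was called at a Benjamini-Hochberg adjusted p under 0.05. The study names DESeq2 with no covariate, which was run here as an alternative (DESeq2 1.42.0) with both terms. The SE of a fitted difference was derived from its F statistic, as the size of the difference over the root of F. Differences within round E2 or batch 3 are differences of mean log2(CPM + 0.5). The fit was run on counts simulated under the same additive batch and round terms, which cannot test whether those terms hold in these data. No libraries of either group were alike within sampling noise (smallest chi-square per degree of freedom 19.1 in Hb and 5.73 in HbHp). Overlapping genes, transcripts, GC content and lengths came from GENCODE M21 on GRCm38, used for names and sequence only, and promoters from RefSeq on GRCm38.p6.

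Genes named are those the study names, the 12 most raised and the 12 most lowered called genes, up to 4 genes of smallest p in each gene list, and the 6 of smallest p between the times. Ikbkg, Sirt1, Sec61a1, Ptprq and G6pdx are named outside that rule, chosen after their values were seen. The comparison, its members and the gene lists were chosen with earlier results of these data known, so the lists give no independent evidence. Counting error is small at these depths, and the number of libraries limits the precision.

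Alternatives were DESeq2, RLE scaling, other filters on low counts, other batch and round terms, subsets of the libraries, the library code as a replicate block, the sex letter as a term, and leaving out each of 22 libraries in turn. An offset for GC content and length (10 by 5 bins), its combination with the block, and leaving out the untreated or Hb libraries of batch 3 and round E2 were chosen later, with the data in view. Libraries whose treatment the labels leave unclear were not used.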

Additional observations from a re-analysis of the deposited data

Results flagged for a closer look

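In 114 groups of values (55 genes in Hb and in HbHp at 24 h, and the totals and mitochondrial shares of both groups), the highest or lowest library stood apart from the rest by Dixon's 95% criterion in 11, where chance flags about 1 group in 20. Each value is a level in CPM, beside that of its nearest neighbour. Among Hb libraries, replicate 9 was lowest for Slc30a1 (35.4 against 41) and Arl13b (20.3 against 23.9) and highest for Tuba1b (483 against 365), and replicate 10 was highest for Ada (12.6 against 9.60). Both are the Hb libraries of batch 3. Hb replicate 5 was lowest for Dlk2 (2.67 against 3.85) and highest for Nadk2 (52.2 against 36.7).

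Among HbHp libraries, replicate 2 was lowest for Tlr2 (14.5 against 18.1) and Klhl24 (66.6 against 77.7), replicate 1 was lowest for Arxes2 (9.24 against 11), replicate 6 was highest for Slc40a1 (64 against 52.2) and replicate 4 was highest for Txlng (17.6 against 15.1). No gene was called for a difference between 24 h and 48 h by edgeR in the fit with batch and round terms.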

How the results depend on the processing

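The count of 46 genes called at 24 h (342 at 48 h, and 0 between the times) moved with most choices. It was 161 with DESeq2 (540 at 48 h, 1 between the times), 10 with no filter on low counts, 378 with the batch term only (1002), 6 with the round term only, 1513 with neither term (3176), 240 with a term for each combination of batch and round (548), 5 with libraries of that time only (46), 0 with Hb and HbHp libraries of that time only (498 genes at an unadjusted p under 0.05; 2 called at 48 h), 100 with all grouped libraries of batches 2 and 3 (821), 0 within round E2 (667 at an unadjusted p under 0.05; 16 at 48 h), 0 within batch 3 (2051 at an unadjusted p under 0.05; 0 at 48 h, with 864), 18 with the GC and length offset (74), and 2 with both untreated libraries of batch 3 and round E2 left out (7). Without Hb 48 h replicate 10 the count at 48 h was 141. RLE scaling gave 50, at least 10 counts in every library 57, and a sex term 58. With 1 library left out the counts ran from 4 to 158 at 24 h and from 77 to 475 at 48 h. With the batch term only 21 of the 46 were still called, with the round term only 4, and with neither term 10. Libraries of 24 h only kept 1 of the 46, and all grouped libraries of batches 2 and 3 kept 26. The tests are edgeR's unless named.

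With the library code as a replicate block, 3 genes were called at 24 h, Gclm, Ccl7 and Ppt2, every other call was lost, and all 46 genes kept their sign (594 at 48 h, 1 between the times), and with the block and the GC and length offset 2 (125, and 1). Gclm gave 0.54 (adjusted p = 0.00503) and Ccl7 -0.77 (adjusted p = 0.0313) under the block. Deviations of libraries with the same code correlated with a median of 0.163 over 62 pairs, against -0.064 for other codes of the same round, but the 2 pairs of Hb and HbHp that share a code gave -0.145 and 0.385. The labels do not say what the code marks, and not every pair correlated, so the codes were not taken as pairs. Within Hb at 24 h, replicates 1 and 6 shared a code, as did replicates 3 and 9. Every HbHp code of 24 h recurred among the HbHp libraries of 48 h. The main fit treated all these libraries as independent.

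Of the 46 genes, 45 were called by DESeq2, and 31 kept their sign in all 19 settings other than the left-out libraries. Among the 46 the sign reversed, by log2 difference, with the batch term only for Fut9 (-0.0080) and Me1 (-0.027), and with the round term only for Ppp1cb (-0.032) and Marcks (-0.090). With neither term it reversed for Fam135a (-0.023), Bmyc (0.016), Zbtb6 (-0.088), Fut9 (-0.58), Slc25a40 (-0.15), Ppp1cb (-0.14), Rimklb (-0.022), Ireb2 (-0.094), Me1 (-0.079), Marcks (-0.32), Tbcd (0.011), Naa30 (-0.19), Nadk2 (-0.16), Zfp945 (-0.13) and Arxes2 (-0.15). Among named genes that were not called, it reversed for F2rl1 with the batch term only (-2.85) and, with neither term, for F2r (-0.97), F2rl1 (-2.80), Hbegf (-1.005), Prss35 (-0.84) and Prkcb (-0.37). The cause was not tested. Every library held at least 24695240 counts, and depth limits genes with few reads such as Ptprq.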

Other observations

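Several gene groups outside the main responses leaned one way without a call. Extracellular matrix and collagen genes were lower with HbHp in 20 of 22 (median log2 difference -0.31), with 0 called by edgeR and 2 at an unadjusted p under 0.05, and their median was -0.21 within round E2 and 0.81 within batch 3. Mmp9, a gelatinase, gave -1.23 ± 0.47 (adjusted p = 0.241). Lysosomal enzymes were lower in 20 of 22 (median -0.26), with medians of -0.08 within round E2 and 0.78 within batch 3. The autophagy receptor Sqstm1 of the same list did not overlap between the groups, at 419 to 702 CPM in Hb and 730 to 822 CPM in HbHp, with a fitted difference of 0.21 ± 0.10 (adjusted p = 0.338) at 24 h and 0.47 ± 0.10 (adjusted p = 0.00658) at 48 h. Proteasome subunits were lower in 25 of 31 (median -0.06). The p53 targets were higher in 9 of 14 (median 0.05), and Trp53inp1 gave 0.38 ± 0.10 (adjusted p = 0.0848).

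Between the times, the genes of smallest p after Il11 held different values at 24 h and 48 h, each without a call. Prss35, a serine protease, gave 0.20 ± 0.22 at 24 h and -0.84 ± 0.22 at 48 h, and Ereg, an EGF receptor ligand, gave -0.20 ± 0.28 and 1.02 ± 0.28. The chaperone activator Ahsa1 gave -0.17 ± 0.05 and 0.08 ± 0.05, and the mitochondrial deacylase Sirt5 gave 0.25 ± 0.08 and -0.13 ± 0.08.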
